A study of Homo sapiens with 12 samples.

Results

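The libraries labelled siLong1 were set against the libraries labelled siLong2, a comparison of a pair of siRNAs that the labels describe as directed at the same form of NFYA. It used 4 of the 12 libraries of the series, 2 per group, taken by their labels alone, and the 17730 of 63677 listed genes that passed a filter on low counts. All cells were HCT116, a line of epithelial cells that came from a human colon carcinoma, and the labels name no genetic change in them. siLong1 cultures received siRNA number 1 and siLong2 cultures siRNA number 2 to the NFYA transcripts that end in the longest 3′ untranslated region, each at 62.5 nM. The siControl cultures received a non-targeting siRNA at the same dose, and the mock cultures went through transfection with no siRNA. All were collected 72 h after transfection, with 2 libraries in each control group, and the controls serve here only to show which siLong group departs from cells without an siRNA to NFYA. Polyadenylated RNA was sequenced from stranded libraries. Per the design text the libraries of each group are biological duplicates, so a p-value sets a difference against the spread between cultures treated alike. That spread was estimated over all 12 libraries in 6 groups. Each siRNA is a single sequence. siLong1 and siLong2 are used as the names of libraries, since a count per gene does not measure the long transcript by itself.

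NFYA encodes the subunit of the transcription factor NF-Y that contacts DNA. It joins the products of NFYB and NFYC, and the trimer binds CCAAT boxes, which are common in promoters of genes for cell division, lipid synthesis and protein folding. An siRNA acts through an Argonaute protein that keeps a single strand as its guide and cuts an mRNA that pairs with the guide along its length. A guide can also lower mRNAs that pair only with its seed, a few bases near its 5′ end, mostly through sites in 3′ untranslated regions, as a microRNA does. siRNAs to the same transcript share the intended target and, in general, not the seed.

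The labels list the siLong sequences as sense strands and do not say which is number 1, so they are called listed first and listed second. Their guide strands, the reverse complements of the listed sequences, are shown because the results by seed rest on them. The guides to all NFYA transcripts (siTotal), which no siLong culture received, are shown as the sequences they are compared with. RNA letters run 5′ to 3′, and capitals mark the seed, guide bases 2 to 8.
siLong listed first, guide: uUACCCUAcaaugaucacu
siLong listed second, guide: uGAUGCUAaaggaaugacc
siTotal listed first, guide: uUUCCCUUcugccucuagu
siTotal listed second, guide: aAAUCGUCcaccuucacca
The seeds of these 4 guides all differ. The siLong sense strands, of 19 bases each, were found in 0 transcripts of GENCODE 29, so no position is given for their sites in NFYA, while each siTotal sense strand was found in 2 NFYA transcripts.

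Gene counts summed to 35761584 and 38023177 reads in siLong1, to 35756378 and 35604197 in siLong2, and to between 37358606 and 49746637 in the 4 control libraries. Replicates differed by more than counting noise in both siLong groups (chi-square per degree of freedom 2.99 in siLong1 and 1.87 in siLong2). This excess alone does not show that the libraries come from separate cultures, for which the design text is the source. Transcripts encoded in mitochondria took 5.45% and 5.77% of reads in siLong1, 6.58% and 6.6% in siLong2, 3.9% and 4.98% in siControl, and 4.58% and 3.83% in mock. Of 16 markers of colon epithelium 12 passed the filter, and their list summed to 5970 to 5980 CPM (reads scaled to library size, with TMM factors) in siLong1, 5410 to 5610 in siLong2, 3900 to 3970 in siControl and 3860 to 4080 in mock. The members did not all follow the sum. Their median log2 fold change against siControl was 0.129 in siLong1 and -0.17 in siLong2. By tests against both controls, 5 of the 12 were higher and 3 lower in siLong1, and 3 higher and 2 lower in siLong2. Over all genes tested, the same tests called 17.2% higher and 18.3% lower in siLong1, and 16.8% each way in siLong2. CEACAM5, a defining marker of that list, was at 0 in every siLong library. Markers of fibroblasts summed to 34.2 to 39.6 CPM in siLong1 and 43.4 to 44.9 in siLong2, within the 31.7 to 51 of mock (siControl 37.3 to 38.7). Neural markers summed to 87.6 to 92.6 in siLong1, 109 to 111 in siLong2, 79.8 to 89.2 in siControl and 81.3 to 87.7 in mock. Of 5 neural markers tested, only MAP2 passed the test between the siLong groups. It had 6.72 and 6.12 CPM in siLong1 and 23.1 and 21.5 CPM in siLong2. Endothelial and blood cell markers summed to at most 11.5 CPM in any siLong library, with the endothelial markers PECAM1, CDH5 and CLDN5 and the glial marker OLIG2 at 0.

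The NF-Y genes were examined before all others. NFYA (ENSG00000001167, chromosome 6, 41072945 to 41099976 on GRCh38) stood at 47.6 and 46.5 CPM in siLong1 and at 69.7 and 70.2 CPM in siLong2, against 57.4 and 57.5 CPM in siControl and 55.2 and 59.1 CPM in mock. The siLong1 libraries were below, and the libraries labelled siLong2 above, all 4 control libraries, so the level in siLong2 goes against its label as far as a count per gene can show it. The log2 fold change, siLong1 over siLong2, was -0.57 (SE 0.05, adjusted p = 3.26e-12). NFYB, the gene of a histone-fold subunit, stood at 36.0 and 32.5 CPM in siLong1 and at 24.1 and 22.4 CPM in siLong2 (log2 fold change 0.56, SE 0.06, adjusted p = 1.31e-09). It was at 31.5 and 33.6 CPM in siControl and 33.6 and 33.8 CPM in mock, so the siLong2 libraries stood below the other 6 and the siLong1 libraries overlapped the controls. NFYA was thus lower, and NFYB higher, in siLong1 than in siLong2.

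NFYC, the gene of the other histone-fold subunit, did not pass the test between the siLong groups. It had 60.8 and 61.2 CPM in siLong1 and 54.7 and 59.9 CPM in siLong2 (log2 fold change 0.09, SE 0.05, adjusted p = 0.123). OARD1, which encodes an ADP-ribose deacylase and overlaps NFYA on the other strand, had 17.8 and 16.7 CPM in siLong1 and 17.0 and 17.7 CPM in siLong2, against 26.7 and 27.5 CPM in siControl and 23.8 and 27.3 CPM in mock. Its siLong groups overlapped each other (log2 fold change -0.01, SE 0.08, adjusted p = 0.95) and both lay below every control library. Whether the counting used strand is not stated here, so reads of NFYA and OARD1 in their shared interval may not be told apart.

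**Figure D1:**
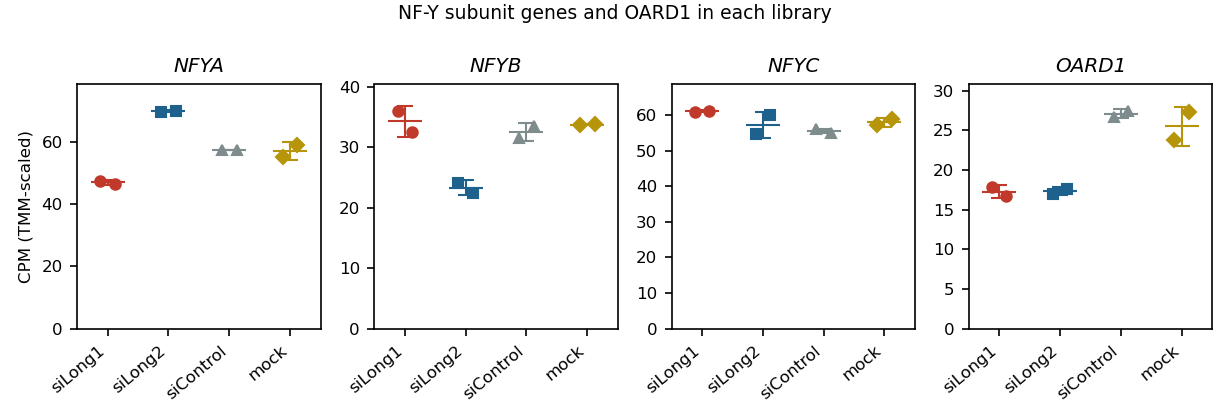
TMM-scaled CPM of NFYA, NFYB, NFYC and OARD1 in each siLong1, siLong2, siControl and mock library (points), with the mean and SD of 2 libraries (bars). NFYA is at 47.6 and 46.5 CPM in siLong1 and 69.7 and 70.2 CPM in siLong2, with the controls between them, while OARD1 is lower in both siLong groups than in both controls.

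Across the table, 9521 of 17730 genes (53.7%) differed between siLong1 and siLong2, 4741 of them higher (26.7% of genes tested) and 4780 lower (27%) in siLong1. Most differences were small. Of the 9521 genes, 5449 differed by less than 0.5 on the log2 scale, 1498 by at least 2-fold (8.45% of genes tested) and 245 by at least 4-fold. The larger ones were split between the directions, with 710 genes at least 2-fold higher (4% of genes tested) and 788 at least 2-fold lower (4.44%) in siLong1. With a stricter filter on low counts, 749 genes in all differed by at least 2-fold. The median log2 fold change was 0.004 over all genes, and the median absolute value over called genes was 0.436. The siLong1 and siLong2 libraries did not overlap in 9514 of the 9521 called genes, against 77% of all genes tested. A library holds RNA of many cells, so a change in the number of cells that make an RNA and a change in RNA per cell cannot be told apart.

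The share of genes called was larger at higher expression and differed between kinds of gene. It was 22.9% of genes under an average log2 CPM of 0 and 72.3% of genes at 6 or above, while the median absolute log2 fold change of called genes was 1.412 in the lowest bin and 0.276 in the highest. Among protein-coding genes 63.1% were called, among long intergenic RNA genes 33.2% and among processed pseudogenes 10.9%. By chromosome, for genes placed by annotation, the share called lay between 49% and 58%, except for the 31 tested genes of the mitochondrial chromosome, of which 11 were called (35.5%), all lower in siLong1.

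**Figure D2:**
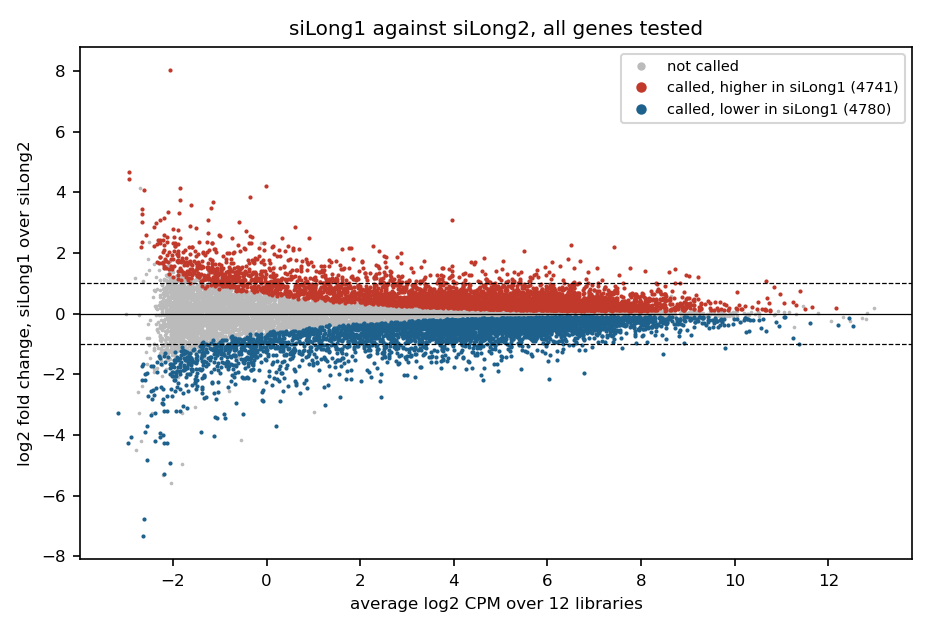
Log2 fold change of siLong1 over siLong2 against the average log2 CPM over 12 libraries, 1 point per gene, with called genes coloured by direction and dashed lines at a 2-fold difference. Called genes number 4741 above and 4780 below the line at 0, and most lie within the dashed lines.

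The controls show which siLong group had moved. A gene was taken to depart where it was called in 1 direction against siControl and against mock, tests that share their control libraries between the siLong groups. By this rule 6291 genes (35.5% of those tested) departed in siLong1, 3054 upward (17.2%) and 3237 downward (18.3%). In siLong2 5960 genes (33.6%) departed, 2975 upward and 2985 downward (16.8% each). Single tests called 54.5% of genes against siControl and 52% against mock in siLong1, and 52.7% and 50.3% in siLong2. Of the 9521 genes that differed between the siLong groups, 2740 departed in siLong1 alone (28.8%), 2471 in siLong2 alone (26%), 1203 in both in the same direction (12.6%), 607 in both in opposite directions (6.38%) and 2500 in neither (26.3%). Over all genes tested, the same classes held 18.1%, 16.2%, 14%, 3.42% and 48.3%, in that order. Both siLong groups therefore carried the difference, in numbers of the same order. Tests against the mean of the mock and siControl groups, which stayed separate in the fit, called 6653 of the 9521 genes in siLong1. In siLong2 they called 6445 (backgrounds of 55.5% and 53.8% of all genes). The rule on both controls gave 4550 and 4281. Genes at least 2-fold higher in siLong1 departed in siLong1 alone in 309 of 710 cases and in siLong2 alone in 100, whereas genes at least 2-fold lower did so in 215 and 242 of 788. The 607 genes that departed in opposite directions comprised 283 above the controls in siLong1 and below them in siLong2, and 324 the other way round. NFYA was among the 324.

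The distances between groups give the same picture in a single number. Over genes with an average log2 CPM above 1, the root mean square log2 difference was 0.458 between the means of siLong1 and siLong2, 0.122 between the siLong1 libraries and 0.124 between the siLong2 libraries. siLong1 lay 0.489 from siControl and 0.43 from mock, and siLong2 lay 0.476 from siControl and 0.418 from mock. The siLong groups were thus about as far from each other as each was from the controls, and siControl and mock themselves lay 0.347 apart.

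The mRNAs that hold a seed match in their 3′ untranslated region leaned in opposite directions between the siLong groups for the siLong sequences listed first and second. A match was the 7-base word that pairs with guide bases 2 to 8, searched on the transcript strand in the longest annotated region of at least 50 bases (GENCODE 29). A region was found for 13071 tested genes, 30.7% of them called higher and 32.5% called lower in siLong1, with a median log2 fold change of -0.01. The word of the siLong sequence listed first, TAGGGTA, occurred in 780 of these genes (5.97%). Of them 22.7% were called higher and 45.6% lower in siLong1, with a median of -0.129. The word of the sequence listed second, TAGCATC, occurred in 944 genes (7.22%), of which 40% were called higher and 27.2% lower in siLong1, with a median of 0.078. That median was 0.001 with no filter on low counts and 0.051 without siLong2 replicate 1. Genes with the first word leaned lower and genes with the second word leaned higher in siLong1 than all genes with a region.

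The controls placed each word with 1 siLong group. Against siControl, genes with the word listed first had a median log2 fold change of -0.144 in siLong1 and -0.012 in siLong2, and against mock -0.13 and 0.021. Genes with the word listed second had a median of -0.026 in siLong1 and -0.091 in siLong2 against siControl, and -0.002 and -0.081 against mock. Genes with the first word were called below both controls in 35.6% of cases in siLong1 and in 20.4% in siLong2, where all genes with a region gave 22.1% and 20.4%. Genes with the second word were below both controls in 24.7% of cases in siLong1 and in 29.7% in siLong2. So the first word went with lower levels in siLong1 and the second with lower levels in siLong2. The labels do not state which sequence is number 1, and these values are no test of that.

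Longer matches went with medians farther from 0. Where the word was followed by an A, a match of 8 bases, the median was -0.168 for the first word (244 genes, 17.2% higher and 49.6% lower) and 0.137 for the second (325 genes, 47.4% higher and 24.6% lower). With 2 or more words in the region the medians were -0.214 (64 genes) and 0.139 (86 genes). The 148 genes that held both words had a median of 0, while the 632 with the first word alone stood at -0.176 and the 796 with the second alone at 0.088. The guide words of the siTotal sequences, absent from both siLong treatments, gave medians of -0.037 (2606 genes) and -0.056 (194 genes). The words of the siLong sense strands gave -0.062 (1120 genes) for the sequence listed first and -0.033 (1155 genes) for the sequence listed second.

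Genes with a word had long regions, with medians of 3387.5 and 3448 bases against 1321 over all, so genes were also compared within 4 equal classes of region length. With the first word the median was lower than without it in all 4 classes, from -0.45 with and 0.017 without in the shortest (21 genes with the word) to -0.112 with and -0.031 without in the longest (471 genes). With the second word it was higher than without it in the upper 3 classes, by the most in the third, at 0.146 with and -0.028 without (216 genes). In the shortest class it was 0.013 with and 0.015 without (29 genes). No test was made of these medians, since genes are not replicates, and a part of the seeds in these differences was not tested.

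**Figure D3:**
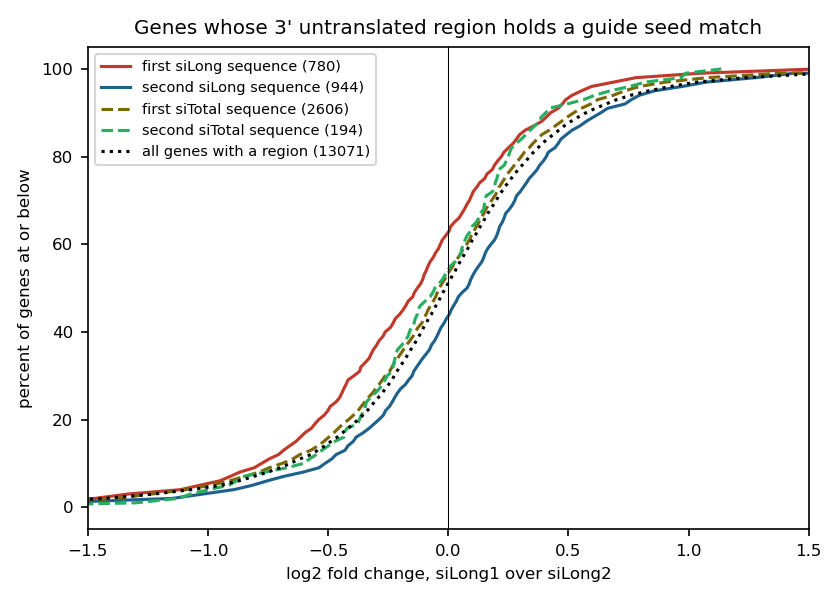
Cumulative distribution of log2 fold change (siLong1 over siLong2) for genes whose 3′ untranslated region holds the 7-base seed match of each guide, with all genes that have a region as a dotted line. The curve of the siLong sequence listed first lies left of all genes (median -0.129) and that of the sequence listed second lies right (median 0.078), with the siTotal curves near the dotted line.

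The sites of genes with large differences in the direction of each word show how little of the siRNA they match. For each word, the 6 largest differences in that direction were taken among called genes with an average log2 CPM over 1 and siLong libraries that did not overlap. Genes of lower expression with larger differences were thereby left out, and since the choice was by value the folds are a description. Sites of 4 of the 6 genes per word are printed as DNA on the transcript strand, GRCh38, with the word in capitals and 10 bases on each side.
FCF1, chr14:74736884-74736910, plus strand: atagcagtgcTAGGGTAaaagtttcag
MAP2, chr2:209732559-209732585, plus strand: tgtggagactTAGGGTAttttattaca
IL17RD, chr3:57094549-57094575, minus strand: gagtcgctttTAGGGTAttcagctttg
CLYBL, chr13:99893981-99894007, plus strand: tggtccctatTAGGGTAggatcatgag
AXL site 1, chr19:41260062-41260088, plus strand: ctctgtgcagTAGCATCaccttgaaag
AXL site 2, chr19:41260082-41260108, plus strand: ttgaaagcagTAGCATCaccatctgta
PIK3CB, chr3:138654802-138654828, minus strand: atttccatgaTAGCATCattccagcca
ATG12 site 1, chr5:115831002-115831028, minus strand: gtaaacccagTAGCATCtttttgagtg
ATG12 site 2, chr5:115830259-115830285, minus strand: ttgaaatttgTAGCATCcatttagtta
FSTL1, chr3:120394573-120394599, minus strand: gtaaacactaTAGCATCtgttaagatc
Pairing from guide base 2 ended after the 7 bases of the seed at each of these sites. Of the 19 bases of the sense strand, 7 to 12 were identical at the site.

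FCF1, which encodes a factor of ribosomal RNA processing, carried the word listed first. It stood at 17.4 and 17.4 CPM in siLong1 and at 75.2 and 78.2 CPM in siLong2, against 74.2 and 76.2 CPM in siControl and 71.1 and 75.1 CPM in mock (log2 fold change between the siLong groups -2.14, SE 0.06). Only the siLong1 libraries lay apart, and the siLong2 libraries were among or just above the controls. IL17RD, the gene of a membrane inhibitor of fibroblast growth factor signalling, had 8.81 and 8.58 CPM in siLong1 and 30.1 and 29.9 CPM in siLong2, against 24.2 and 24.5 CPM in siControl and 24.9 and 26.6 CPM in mock. CLYBL, the gene of a mitochondrial lyase, had 2.79 and 3.15 CPM in siLong1 and 9.63 and 8.41 CPM in siLong2, against 9.07 and 8.32 and 10.9 and 11.8 CPM in siControl and mock. In both, siLong1 was below all 6 other libraries, and for IL17RD the siLong2 libraries were also above every control. MAP2, the gene of a microtubule-associated protein, had 6.72 and 6.12 CPM in siLong1 and 23.1 and 21.5 CPM in siLong2, and its control libraries, at 10.3 and 9.81 CPM in siControl and 8.77 and 8.96 CPM in mock, lay between the siLong groups. INPP5D, a phosphatase gene with the same word, was also lower in siLong1 (log2 fold change -1.55), but there the siLong2 libraries stood above both controls.

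PIK3CB, the gene of a catalytic subunit of phosphoinositide 3-kinase, carried the word listed second. It stood at 90.6 and 87.4 CPM in siLong1 and at 27.4 and 27.3 CPM in siLong2, against 82.4 and 84.4 CPM in siControl and 81.3 and 86.9 CPM in mock (log2 fold change between the siLong groups 1.70, SE 0.05). Here the libraries labelled siLong2 lay apart from the other 6. In cultures with siRNAs to all NFYA transcripts, PIK3CB had 44.06 and 42.98 CPM in siTotal1, also below every control. It had 81.79 and 82.02 CPM in siTotal2. AXL, the gene of a receptor tyrosine kinase, holds the word at 2 sites, and had 140.0 and 140.0 CPM in siLong1 and 42.3 and 41.0 CPM in siLong2, against 105 and 102 CPM in siControl and 82.5 and 81.7 CPM in mock. ATG12, the gene of a ubiquitin-like autophagy protein, also holds it at 2 sites, and had 368 and 364 CPM in siLong1 and 136 and 139.7 CPM in siLong2, against 379 and 401 CPM in siControl and 199 and 212 CPM in mock. FSTL1, the gene of a secreted glycoprotein, had 43.2 and 41.3 CPM in siLong1 and 16.7 and 15.3 CPM in siLong2, against 38.1 and 37.7 CPM in siControl and 33.0 and 31.9 CPM in mock. In all 4 genes siLong2 was the lowest group, the siLong1 libraries of AXL and FSTL1 were also above every control, and the controls of ATG12 differed between themselves.

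The 15 largest differences in each direction, by the rule for named genes, are given with the higher side before the lower. From here on, a signed value that stands beside a gene with no other name is its log2 fold change, siLong1 over siLong2, and each such gene was called. SCG2, which encodes a granin of secretory vesicles, had 46.0 and 48.7 CPM in siLong1 and 6.01 and 4.98 CPM in siLong2, against 7.17 and 7.54 CPM in siControl and 11.2 and 11.7 CPM in mock (log2 fold change between the siLong groups 3.10, SE 0.08, adjusted p = 1.67e-26). PLAU, the urokinase gene, had 272 and 287 CPM in siLong1 and 56.2 and 59.2 CPM in siLong2, against 45.5 and 44.7 CPM in siControl and 62.6 and 60.4 CPM in mock (2.27, adjusted p = 2.77e-30). The siLong1 libraries stood above the other 6 in both genes, and for PLAU the siLong2 libraries were close to the controls. TIMP2, an inhibitor of matrix metalloproteinases, had 255 and 273 CPM in siLong1 and 57.6 and 57.8 CPM in siLong2, against 129 and 131 CPM in siControl and 137 and 143 CPM in mock (2.19). ELF3, an epithelial transcription factor of the ETS family, had 99.5 and 102 CPM in siLong1 and 23.6 and 24.3 CPM in siLong2, against 40.7 and 49.8 CPM in siControl and 39.6 and 47.6 CPM in mock (2.07). The controls of TIMP2 and ELF3 lay between the siLong groups.

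The other 11 genes of the higher side had log2 fold changes of 1.81 to 2.23. They were CEACAM19, TNRC6C-AS1, SLC37A2, a sugar phosphate exchanger, the metalloproteinase gene ADAMTS10, the kinase gene WNK4, which regulates salt transport, DACT1, whose product binds Dishevelled, AGER, the receptor of advanced glycation end products, TIGD1, MAMDC4, the neuropeptide precursor VGF and the pseudogene CIBAR1P1. Of the 15, 9 departed from the controls in both siLong groups in opposite directions, 5 in siLong1 alone and 1, MAMDC4, in siLong2 alone. TNRC6C-AS1 is antisense to TNRC6C, and CIBAR1P1 is a copy of another gene, so their counts are uncertain.

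On the lower side, NLRP4, a gene of the NOD-like receptor family, was the farthest, at 0.621 and 0.45 CPM in siLong1 and 4.40 and 4.13 CPM in siLong2, against 1.02 and 0.808 CPM in siControl and 2.50 and 2.65 CPM in mock (log2 fold change -2.99, SE 0.21, adjusted p = 1.54e-14). SLFN5, a gene of the Schlafen family, had 9.29 and 11.7 CPM in siLong1 and 48.3 and 46.1 CPM in siLong2, against 19.8 and 20.7 CPM in siControl and 18.6 and 20.2 CPM in mock (-2.17). In both genes siLong1 was the lowest group and siLong2 the highest. RAB11FIP4, the gene of an effector of endosome recycling, had 7.26 and 7.47 CPM in siLong1 and 28.3 and 31.5 CPM in siLong2, against 30.2 and 32.2 CPM in siControl and 27.4 and 27.7 CPM in mock (-2.02). GRHL3, a grainyhead transcription factor of epithelia, had 2.00 and 1.46 CPM in siLong1 and 6.66 and 7.50 CPM in siLong2, against 1.71 and 1.67 CPM in siControl and 0.912 and 0.626 CPM in mock (-2.04). Of the siLong groups, RAB11FIP4 was thus low in siLong1 alone, and GRHL3 was high in siLong2 alone by the rule on both controls. Outside the siLong groups, RAB11FIP4 had 15.85 and 15.38 CPM in siTotal1, below every control, and 30.44 and 32.93 CPM in siTotal2.

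FCF1, described with its site above, was also among the 15, and the other 10 had log2 fold changes of -2.74 to -2.03. They were PAQR8, a membrane progesterone receptor gene, CFAP92, ZNF425, ZNF804A, the ligand gene TNFSF18, the choline transporter-like gene SLC44A5, the vesicle transport gene TRAPPC6A, GRAMD2A, CCDC92 and FAM81A. Of the 15, 9 departed in opposite directions, 4 in siLong1 alone and 2 in siLong2 alone. A rule that takes the largest gap between groups favours genes that moved both ways, so these counts describe the rule as well as the genes. Of the 13 genes of the higher side with an annotated region, 0 held either siLong guide word, and on the lower side FCF1 held the first and CFAP92 the second.

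**Figure D4:**
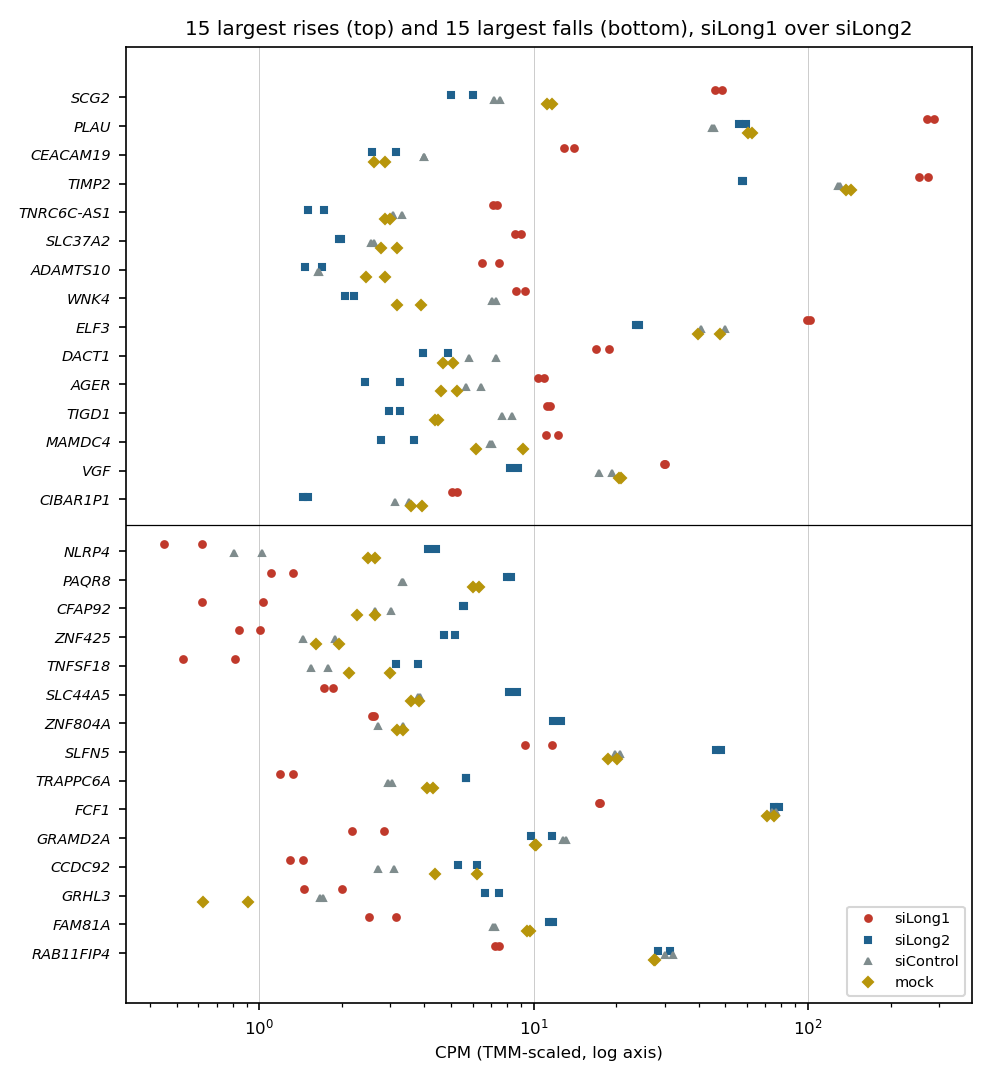
TMM-scaled CPM (log axis) of the 15 genes with the largest rises and the 15 with the largest falls, siLong1 over siLong2, with 2 libraries each of siLong1, siLong2, siControl and mock. For SCG2 the siLong1 points lie at 46.0 and 48.7 CPM, right of all others, and for FCF1 they lie at 17.4 and 17.4 CPM, left of all others.

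Gene lists by pathway were compared by the number of members called and by their median, beside 26.7% higher, 27% lower and a median of 0.004 over all genes. Against both controls, 17.2% of all genes were called higher and 18.3% lower in siLong1, and 16.8% each way in siLong2. Between the siLong groups, shares called were larger among protein-coding genes (63.1%) and at an average log2 CPM of 4 to 6 (68.4%) or 6 and over (72.3%). The lists were not matched to genes of like kind or expression, so their shares are not set against a like background. Members beyond the 4 largest called changes of a list, such as the few on its smaller side, were named after their values were seen. The p53 targets had the lowest median of the pathway lists. Of 32 tested members, 4 were higher and 23 lower in siLong1, with a median of -0.418. Against both controls, 20 members were higher in siLong1 and 24 in siLong2, and the medians against siControl were 0.343 and 0.667. The list was thus above the controls in both groups, and farther in the libraries labelled siLong2. TP53I3, an oxidoreductase gene, had 18.4 and 19.7 CPM in siLong1 and 56.3 and 55.0 CPM in siLong2, against 7.28 and 7.19 CPM in siControl and 10.8 and 11.6 CPM in mock (log2 fold change between the siLong groups -1.55, SE 0.07). FBXO22, the gene of a ubiquitin ligase subunit, had 36.5 and 35.7 CPM in siLong1 and 84.3 and 85.6 CPM in siLong2, against 58.5 and 56.4 CPM in siControl and 56.0 and 58.7 CPM in mock (-1.24). TP53I3 was above the controls in both siLong groups, whereas FBXO22 was below them in siLong1 and above them in siLong2.

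Other p53 targets varied in the same list, of which CDKN1A and MDM2 were chosen after their values were seen. CDKN1A, the gene of the cell cycle inhibitor p21, had 504 and 515 CPM in siLong1 and 995 and 1010.0 CPM in siLong2, against 328 and 334 CPM in siControl and 284 and 305 CPM in mock (-0.98). MDM2, whose product degrades p53, had 233 and 232 CPM in siLong1 and 231 and 229.8 CPM in siLong2, and did not pass the test (log2 fold change 0.01, adjusted p = 0.812). PHLDA3, an inhibitor of Akt signalling, went the other way, with 44.9 and 46.4 CPM in siLong1 and 19.6 and 21.1 CPM in siLong2, against 32.9 and 29.4 CPM in siControl and 25.5 and 26.7 CPM in mock (1.17). SPATA18, a mitochondrial quality control gene, was under 1 CPM in every siLong library (-2.24, SE 0.48).

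Mitosis genes leaned the other way. Of 47 tested, 34 were higher and 3 lower in siLong1, with a median of 0.231. The list lay below the controls in both groups: 40 members were below both controls in siLong1 and 47 in siLong2, with medians against siControl of -0.308 and -0.548. FOXM1, a transcription factor of G2 and M phase genes, had 164 and 164 CPM in siLong1 and 103 and 104 CPM in siLong2, against 153 and 149.7 CPM in siControl and 179.7 and 180.5 CPM in mock (log2 fold change between the siLong groups 0.66, SE 0.04). The phosphatase gene CDC25B stood at 0.69, the spindle checkpoint kinase gene TTK at 0.58 and the kinesin gene KIF18A at 0.54. In all 4 genes the siLong2 libraries lay below every other library named here. The members lower in siLong1 were ANLN (-0.36), HMMR (-0.31) and CCNB1 (-0.10, adjusted p = 0.0442), chosen after their values were seen.

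Genes of DNA replication and the G1/S transition were split. Of 45, 21 were higher and 15 lower in siLong1, with a median of 0.102. POLA1, the catalytic subunit of the polymerase that primes replication, had 59.0 and 55.9 CPM in siLong1 and 35.8 and 34.3 CPM in siLong2, against 60.3 and 61.6 CPM in siControl and 74.6 and 76.4 CPM in mock (0.71). The polymerase subunit gene POLD3 (0.67) and the thymidine kinase gene TK1 (0.66) were also higher, while CCNE2, the gene of cyclin E2, was lower, with 18.5 and 16.9 CPM in siLong1 and 33.2 and 32.7 CPM in siLong2 (-0.90). POLA1 was lowest in siLong2, and CCNE2 was lowest in siLong1. Among 25 genes of homologous recombination and the Fanconi anemia pathway 7 were higher and 6 lower, with a median of 0.01. XRCC2 was at 0.66 and BARD1 at 0.30, while FANCL was at -0.84 and RAD54B at -0.81.

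Chaperone and sterol synthesis genes were mostly lower in siLong1. Of 19 heat shock and cytosolic chaperone genes, 1 was higher and 15 lower, with a median of -0.264, and 15 were below both controls in siLong1 against 5 in siLong2. HSPE1, the gene of the mitochondrial co-chaperonin, had 92.8 and 88.6 CPM in siLong1 and 125 and 130.1 CPM in siLong2, against 124 and 121 CPM in siControl and 120.3 and 123 CPM in mock (-0.49), and departed in siLong1 alone. HSPA4 (-0.52), DNAJB4 (-0.52) and the Hsp90 activator gene AHSA1 (-0.45) were lower as well, and the 1 higher member was CHORDC1 (0.10). Of 24 genes of sterol synthesis, 3 were higher and 15 lower, with a median of -0.282. IDI1, an isomerase of the pathway, had 66.1 and 59.7 CPM in siLong1 and 92.7 and 97.4 CPM in siLong2, against 110.4 and 122 CPM in siControl and 81.6 and 92.7 CPM in mock (-0.60). HSD17B7 was at -0.88 and the sterol sensor partner gene INSIG1 at -0.52, whereas LSS, the lanosterol synthase gene, was at 0.52. The controls of IDI1 and INSIG1 differed between themselves, and IDI1 in siLong2 overlapped them. Fatty acid synthesis genes were split, with 7 of 14 higher and 6 lower (median 0.023), SREBF1 at 0.54 and FADS2 at -0.38 among them.

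Stress response lists were mixed. In the list of the ATF4 and amino acid response, 9 of 29 were higher and 13 lower in siLong1 (median -0.112), led by DDIT4, an inhibitor of mTORC1 signalling, with 96.1 and 99.2 CPM in siLong1 and 32.0 and 34.5 CPM in siLong2, against 50.4 and 84.4 CPM in siControl and 83.7 and 113 CPM in mock (1.55). Its siLong2 libraries lay below all 6 others. The transcription factor genes ATF3 (-1.03) and ATF5 (-0.91) were lower in siLong1, as was the folate enzyme gene ALDH1L2 (-1.03). Among 24 genes of the endoplasmic reticulum 9 were higher and 5 lower (median -0.03), with the chaperone gene HYOU1 at 0.97 and the disulfide isomerase gene P4HB at -0.59. HYOU1 had 393 and 394 CPM in siLong1 and 198 and 204 CPM in siLong2, against 354 and 343 CPM in siControl and 353 and 348 CPM in mock, so its change lay mostly in siLong2. Cytosolic aminoacyl-tRNA synthetase genes were split, with 9 of 20 higher and 7 lower (median 0.038), among them YARS1 at 0.66 and WARS1 at -0.49.

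Antioxidant genes of the NRF2 list were lower in 11 of 24 members and higher in 5, with a median of -0.173. NQO1, a quinone reductase gene, had 163 and 152 CPM in siLong1 and 387 and 400.3 CPM in siLong2, against 239 and 256 CPM in siControl and 452 and 475 CPM in mock (-1.32). FTH1, the gene of ferritin heavy chain, had 3247 and 3375 CPM in siLong1 and 1550.0 and 1574 CPM in siLong2, against 1547 and 1530.0 CPM in siControl and 1396 and 1543 CPM in mock (1.08). NQO1 was below every control in siLong1, and FTH1 was above every control there while the siLong2 libraries stood close to them. FTH1 has near-identical processed copies, so its count is uncertain.

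Nuclear genes of the respiratory chain were more often lower than higher in siLong1. Of 32 tested, 1 was higher and 20 lower in siLong1, with a median of -0.17. UQCRC2, a subunit of complex III, had 175 and 166 CPM in siLong1 and 285 and 286 CPM in siLong2, against 219.9 and 218 CPM in siControl and 257 and 269 CPM in mock (-0.75). NDUFA1 (-0.56) and SDHA (-0.52) were lower too. Above both controls stood 0 members in siLong1 and 13 in siLong2. The 1 higher member, NDUFV2 (0.55), lost its call under DESeq2 (adjusted p = 0.125) and without any 1 of the siLong libraries (adjusted p of 0.0523 to 0.174). Of 15 mitochondrially encoded transcripts 0 were higher and 4 lower, with a median of -0.269, a share of lower calls close to that of all genes. MT-ND3, of complex I, had 759.9 and 778 CPM in siLong1 and 1695 and 1682 CPM in siLong2, against 544 and 646 CPM in siControl and 612 and 556 CPM in mock (-1.13, adjusted p = 0.000506), so siLong2 was the highest group. MT-ND2 was at -0.99, MT-ND1 at -0.81 and MT-RNR1 at -0.57. Without 1 siLong library MT-ND1 and MT-RNR1 lost their calls, with adjusted p of 0.0586 for MT-ND1 without siLong1 replicate 1, and of 0.0576 and 0.0562 for MT-RNR1 without replicate 2 of siLong1 and of siLong2. Mitochondrial genes have nuclear copies, and their counts are uncertain.

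Of 30 genes of glycolysis and hypoxia, 11 were higher and 6 lower, with a median of 0.088. The glucose transporter gene SLC2A1 had 245 and 254 CPM in siLong1 and 390.0 and 417 CPM in siLong2, against 160.3 and 192 CPM in siControl and 170.2 and 208 CPM in mock (-0.70). It was above the controls in both siLong groups. The hexokinase gene HK1 was at -0.63. SLC2A3 was at -1.24, with controls that differed, at 29.2 and 35.0 CPM in siControl and 6.41 and 9.34 CPM in mock, and neither siLong group departed. Among the 11 higher members, chosen after their values were seen, were the lactate transporter gene SLC16A3 (0.44) and the kinase gene PGK1 (0.30). ALDOC was at -1.08 and lost its call without siLong1 replicate 2 (adjusted p = 0.0617) or siLong2 replicate 2 (adjusted p = 0.0509). Of 20 nucleotide synthesis genes 7 were higher and 10 lower (median -0.078). Of 37 cytosolic ribosomal protein genes 7 were higher and 13 lower (median -0.043), with RPSA at 0.52 and RPL13A at -0.46. Of 25 proteasome genes 3 were higher and 10 lower (median -0.052), with the subunit genes PSMB5 at -0.38 and PSMA2 at 0.45. PSMA2 had few reads, with 5.93 and 5.56 CPM in siLong1 and 4.29 and 4.105 CPM in siLong2.

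Signalling lists differed in sign. Of 24 genes of ERK pathway output and feedback, 14 were higher and 7 lower in siLong1, with a median of 0.219. PHLDA1 had 664 and 661 CPM in siLong1 and 318 and 334 CPM in siLong2, against 439 and 461 CPM in siControl and 376 and 419 CPM in mock (1.02). DUSP6, the gene of an ERK phosphatase, had 64.6 and 62.6 CPM in siLong1 and 143 and 145 CPM in siLong2, against 60.8 and 62.8 CPM in siControl and 103 and 113 CPM in mock (-1.18). The list was thus not uniform, with IER3 at 0.90 and the ligand gene AREG at -0.82. Of 20 Wnt feedback and stem cell genes, 6 were higher and 13 lower, with a median of -0.325. SP5, a transcriptional target of the pathway, had 0.762 and 1.09 CPM in siLong1 and 3.84 and 4.61 CPM in siLong2, against 0.999 and 0.647 CPM in siControl and 1.15 and 1.64 CPM in mock (-2.18), and was high in siLong2 alone. The receptor gene TNFRSF19 was at -1.22, and the Dishevelled-binding inhibitor genes NKD1 and NKD2 were at -0.82 and -0.68. NOTUM (0.63), a secreted inhibitor of the pathway chosen after its value was seen, was the farthest of the 6 on the higher side. YAP target genes were split, 9 of 22 each way (median -0.043), with PLAU and AXL on the higher side. WWTR1, the gene of the YAP paralog TAZ, was at 1.28. ANKRD1 was at -3.40, from at most 1.06 CPM in any siLong library.

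The immune lists differed among themselves. Of 27 interferon-stimulated and RNA-sensing genes, 2 were higher and 13 lower, with a median of -0.192. USP18, the gene of an ISG15 protease, had 4.83 and 4.32 CPM in siLong1 and 9.89 and 10.1 CPM in siLong2, against 8.49 and 7.65 CPM in siControl and 5.37 and 5.54 CPM in mock (-1.13). IFI27 was at -1.58, while OAS2, at 2.52, was under 1 CPM in every siLong library. BST2 (-1.10) lost its call under DESeq2 (adjusted p = 0.0519) and without siLong1 replicate 1 (adjusted p = 0.0645). Of 15 genes of MHC class I presentation 4 were higher and 3 lower (median 0.029). Of 16 chemokine and NF-kB feedback genes 4 were higher and 1 lower (median 0.06), with NFKB1 at 0.61.

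Epithelial genes moved by gene. Of 34 genes of epithelial junctions and identity, 15 were higher and 12 lower in siLong1, with a median of 0.092. The tight junction genes CLDN2 (-2.35) and CLDN12 (-0.90) were lower, and TJP3 (0.69) and ELF3 were higher. CLDN2, a pore-forming claudin, had 0.706 and 0.689 CPM in siLong1 and 3.40 and 3.74 CPM in siLong2, against 0.0788 and 0.0539 CPM in siControl and 0.635 and 0.843 CPM in mock, and was high in siLong2 alone by the rule on both controls. Of 11 keratins 6 were higher and 2 lower, with a median of 0.393. KRT7 had 30.4 and 31.9 CPM in siLong1 and 9.44 and 9.60 CPM in siLong2, against 40.9 and 37.3 CPM in siControl and 13.3 and 13.7 CPM in mock (1.71), so its controls differed by more than its siLong1 libraries did from either. KRT20 (0.94) and KRT15 (0.55) were higher, and KRT81 (-1.01) was lower. The summed colon epithelium markers were also higher in siLong1 than in siLong2, as given with the libraries. Of their 12 tested members, 6 were called higher and 2 lower. The part of these markers in the values of the epithelial genes and keratins was not tested. Of 29 mesenchymal and matrix genes 12 were higher and 6 lower (median 0.027), with TIMP2 and the transcription factor genes SNAI2 (1.23) and ZEB1 (1.14) higher. The collagen gene COL5A1 (-1.996), under 1 CPM in every siLong library, was lower. Of 25 intestinal differentiation genes only 5 passed the filter, 2 of them higher and 1 lower (median -0.031).

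Cell death and autophagy genes were the last of the larger lists. Of 29 genes of the BCL2 family, caspases and their inhibitors, 3 were higher and 17 lower in siLong1, with a median of -0.177. BCL2L11, which encodes the death inducer BIM, had 19.2 and 20.3 CPM in siLong1 and 36.1 and 36.1 CPM in siLong2, against 18.9 and 21.1 CPM in siControl and 23.3 and 23.7 CPM in mock (-0.87). CASP6, a caspase gene, was at -0.80, and BCL2L15 at -1.16. BCL2L11 was high in siLong2 alone. The list holds genes that promote and genes that block cell death, and XIAP, an inhibitor of caspases, chosen after its value was seen, was lower too (-0.51). The 3 higher members were BCL2L2 (0.35), BIRC2 (0.23) and BIRC5 (0.15). Of 30 lysosome and autophagy genes 10 were higher and 12 lower (median -0.068). MAP1LC3B, of the autophagosome membrane, had 79.9 and 82.4 CPM in siLong1 and 172 and 175 CPM in siLong2, against 131 and 131 CPM in siControl and 87.0 and 92.2 CPM in mock (-1.10). The cholesterol transporter gene NPC1 (0.70) was higher. Of 13 genes of the RNA interference machinery 3 were higher and 5 lower (median -0.064), with AGO4 at -1.03, AGO1 at -0.21 and PRKRA at 0.36. Of 10 replication-dependent histone genes 1 was higher and 4 lower (median -0.192), with H2BC12 at -1.12 and H1-2 at 0.43, and their near-identical copies make these counts uncertain.

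**Figure D5:**
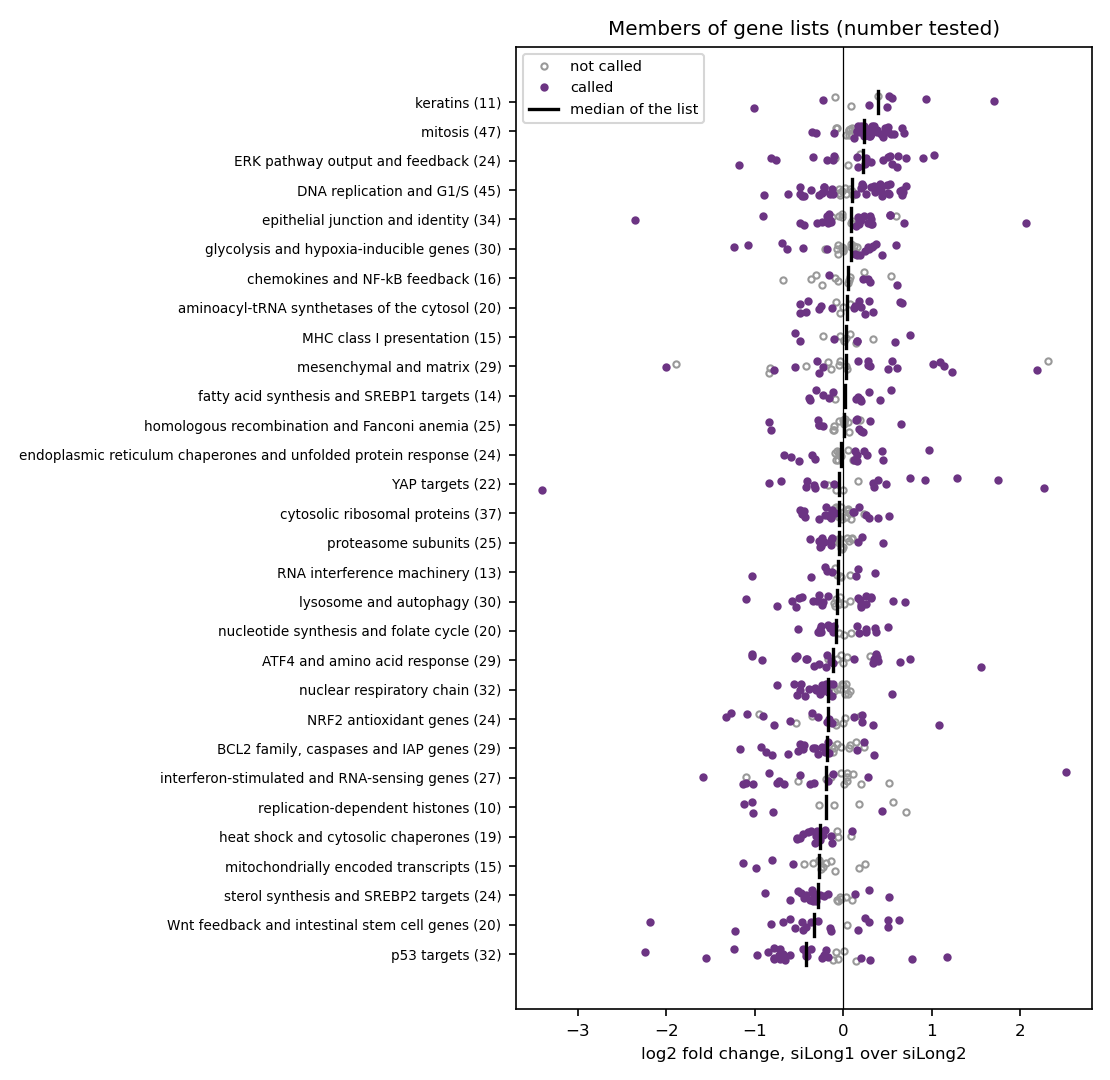
Log2 fold change (siLong1 over siLong2) of each tested member of the pathway and gene family lists with 10 or more tested members, cell type marker lists left out, filled where called, with the median of each list as a bar and the number tested in brackets. The keratin median (0.393) is at the top and the p53 target median (-0.418) at the bottom, and most lists hold members on both sides of 0.

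CCAAT boxes, the sequence that NF-Y binds, were about as common in promoters of genes higher and lower in siLong1. The word CCAAT on either strand was searched from 250 bases before to 50 after the start of each gene (RefSeq, GRCh38.p14), in 11498 tested genes with a promoter. It was found in 36% of promoters of genes called higher, 35.7% of genes called lower, 35.5% of genes not called and 35.7% of all. Genes called at least 2-fold higher held it in 31.3% and at least 2-fold lower in 35.9%. Genes with the word had a median log2 fold change of -0.012 and genes without it -0.021. A match of these letters is a description of the promoter and does not show binding.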

How the data were processed

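Polyadenylated RNA of HCT116 cultures was sequenced from stranded libraries. Per the submitters' processing notes, which name STAR 2.4.0f1, featureCounts and hg19, reads were handled with these tools. The sources used here do not give their order, the annotation or the strand setting. What the authors deposited is a table of raw counts per gene, with 0 columns of samples outside the series. Library totals were 35604197 to 49746637 reads. Counts of all 12 libraries in 6 groups were fitted with edgeR 4.0.16 (quasi-likelihood test, robust, TMM scaling, filterByExpr with a minimum count of 10 and a minimum total of 15) in R 4.3.3, with no block. Every p-value is Benjamini-Hochberg adjusted over all genes tested, with 0.05 as the limit for a call. Log2 fold changes are siLong1 over siLong2. Tested on simulated data for siLong1 against siLong2 with 17506 genes, 46% of 50 genes changed 1.2-fold were recovered, 90% of 50 changed 1.5-fold, 96% of 50 changed 2-fold and 100% of 50 changed 4-fold. False calls were 12 of 178. The changed genes were picked above a limit on expression, and all other genes were set equal between the siLong groups. Recovery at low counts, or with as many genes changed as were called in the data, was thus not tested.

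Named genes were the 15 largest log2 fold changes each way among called genes with an average log2 CPM over 1, a symbol and siLong libraries that did not overlap, the NF-Y genes with OARD1, and up to 4 called members of each gene list by size of change. The comparison, the lists and the tests were chosen with earlier results of these data known. Positions are those of GENCODE 29 (GRCh38), matched by gene identifier, and no hg19 position was used. Promoters are from RefSeq. Alternatives were DESeq2 1.42.0, other scalings and filters, fewer libraries in the fit, a replicate block and leaving out each replicate. A further alternative set each siLong group against the mean of the mock and siControl groups in the same fit.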

Additional observations from a re-analysis of the deposited data

Results flagged for a closer look

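NFYA moved in opposite directions in the siLong groups, below both controls in siLong1 and above both in the libraries labelled siLong2, with a log2 fold change of -0.57 between them. In all, 607 genes (3.42% of genes tested) were called in opposite directions in siLong1 and siLong2, each against both controls. For these genes the siLong groups were set against the same control libraries, and the difference itself is the comparison of siLong1 with siLong2 given above.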

How the results depend on the processing

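Calls between siLong1 and siLong2 numbered 9521, and 8028 to 8360 without 1 siLong replicate, 8176 with DESeq2, 10299 with only the siLong libraries, 9955 without the siTotal groups, and 9365, 8802, 9522 and 9509 with no filter, a stricter filter, RLE factors and no scaling. Genes at least 2-fold apart numbered 749 with the stricter filter and 1357 to 1461 without 1 replicate, against 1498. In tests against the mean of the mock and siControl groups, 6445 of the differing genes were called in siLong2, against 4281 by the rule on both controls. By replicate number, the correlation of deviations was -0.136 between the siLong groups. For other pairs of groups it ran from -0.255 (siTotal1 with mock) to 0.23 (siTotal2 with siControl). These values do not settle whether the numbers pair the libraries. The replicate block gave 9550 calls. With the siLong2 numbers crossed, a pairing chosen after seeing the data, it gave 9679.

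The median of the word listed first (-0.129) was -0.138 with no scaling, -0.117 with no filter, -0.121 with the stricter filter, -0.137 with only the siLong libraries, -0.099 with 6 bases and -0.145 to -0.126 without 1 replicate. The median of the word listed second (0.078) was 0.001 with no filter, 0.039 with 6 bases and 0.051 to 0.065 without 1 replicate. The CCAAT difference of medians (0.01) ran from -0.002 to 0.015 without 1 replicate, so its sign depends on single libraries. NFYA ran from -0.598 to -0.561. OARD1, not called at -0.01, was at -0.064 without siLong1 replicate 1 and changed sign without siLong1 replicate 2 (0.032, adjusted p = 0.813) and without siLong2 replicate 2 (0.011, adjusted p = 0.939). Of 1979 other values for 153 named genes, 1948 kept direction and call, 29 lost the call and 2, those of OARD1, reversed. The cause of these changes was not tested. With 2 libraries a group, the precision of small differences and of genes with few reads is limited.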
